A study of Mus musculus with 6 samples.

Results

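Ly6d, the gene of the surface protein whose absence defined the sorted cells, is 1 of 22180 named genes on the arrays and the only member described here. Ly6d was chosen by its level and pattern over these same 6 arrays, so its values are a description and its test does not count as independent evidence. A single probe set named it alone, with a mean of 7.57 on the log2 scale, so no choice among probe sets was needed. The cells were common lymphoid progenitors of mouse bone marrow, sorted as low for lineage markers, positive for Kit, Sca and CD127, and negative for Thy1.2 and Ly6D. Their RNA was amplified and measured on Affymetrix arrays, with 1 array for each of 3 control and 3 mutant samples. Control mice were OcnCre-;iDTR+/- and mutant mice OcnCre+;iDTR+/-, and every mouse was an adult of 6 to 8 weeks injected with diphtheria toxin daily for 4 weeks. The allele of the inducible toxin receptor, iDTR, was thus present in both groups. Cre, driven by the osteocalcin promoter, was present in mutants alone, where the receptor makes osteocalcin-expressing cells of the bone sensitive to toxin. The design compares lymphoid progenitors from toxin-treated mice with and without that Cre; the loss of the bone cells themselves was not measured on these arrays. Whether a sample is 1 mouse or a pool is not given in the labels. The p-values therefore reflect the spread among 3 arrays per group, which may be technical, and the number of arrays limits the precision.

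Ly6d encodes a small protein of the Ly6/uPAR family, which is tethered to the outer cell membrane by a glycosylphosphatidylinositol (GPI) anchor. In mouse marrow its appearance on common lymphoid progenitors marks the step at which they become largely restricted to the B lineage, while Ly6D-negative progenitors keep T, natural killer and dendritic cell potential. The transcription factors E2A (from Tcf3), EBF1 and FOXO1 and the receptor for interleukin 7 act at this step, and early B lineage genes come on around it. The arrays measured transcript and not surface protein. In such bulk samples, fewer cells carrying a transcript and less transcript per cell cannot be told apart.

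Some properties of the arrays touch the values below. Mutant replicate 2 stood apart, correlating at 0.92 to 0.94 with each other array across 13308 genes, which are not independent. Between the remaining 5 arrays the correlation was 0.97 to 0.99. Sex-linked transcripts divided the arrays across the groups: the Y-linked gene Eif2s3y was at 4.88 in control replicate 1 and 4.77 in mutant replicate 3, and at 7.31 to 7.85 on the other 4 arrays. The tissue label names stromal cells of the marrow. Of 15 measured stromal and osteoblast markers 8 were too dim to be tested (a mean below 4.84), including Lepr, Sp7 and Pdgfra. By the setting of this filter, 40% of all genes were too dim. The other 7 were tested, among them Alpl at 7.82 to 8.29, Cxcl12 at 5.75 to 6.27 and Col1a1 at 5.82 to 6.08. Il7r, the gene of CD127, was at 9.72 to 10.35.

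Ly6d transcript had values of 7.00 to 8.25 in the Ly6D-negative sort. Control replicates differed by up to 1.07, against 0.57 between the group means. The control arrays, replicates 1 to 3, gave 7.18, 8.14 and 8.25 for Ly6d, and the mutant arrays in the same order gave 7.57, 7.30 and 7.00. Control replicates 2 and 3 were the highest arrays, and control replicate 1 lay inside the range of the mutants, so the groups overlapped. In rising order the arrays were mutant replicate 3, control replicate 1, mutant replicate 2, mutant replicate 1, control replicate 2 and control replicate 3. The largest step between neighbours in this order was 0.57, from mutant replicate 1 to control replicate 2, and the others were 0.11 to 0.27. No step was larger than the SD of the controls, 0.59. RMA gives no detection call, so the values do not say what share of the signal is background. All 6 values were above the limit of 4.84 below which genes were not tested.

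The mutant mean of Ly6d was 0.57 lower on the log2 scale, and the difference did not pass. Controls averaged 7.86 ± 0.59 and mutants 7.29 ± 0.28 (SD, n = 3 each), which is a difference of −0.57 ± 0.29 (SE) with a 95% confidence interval from −1.23 to 0.10. The limma test gave an adjusted p of 0.594 and an unadjusted p of 0.085. The exact permutation test over the 20 splits of the arrays, 2-sided, gave p = 0.3, and 0.1 is the smallest p it allows. Of 13308 genes tested with limma 0 passed an adjusted p of 0.05, which is 0% of them, as in the unmoderated test. At an unadjusted p under 0.05 there were 1068, or 8.03%. Control replicate 1 weighed most on the size: without it the difference was −0.90 (adjusted p = 0.695 in limma), and without control replicate 3 it was −0.37 (adjusted p = 0.846).

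**Figure D1:**
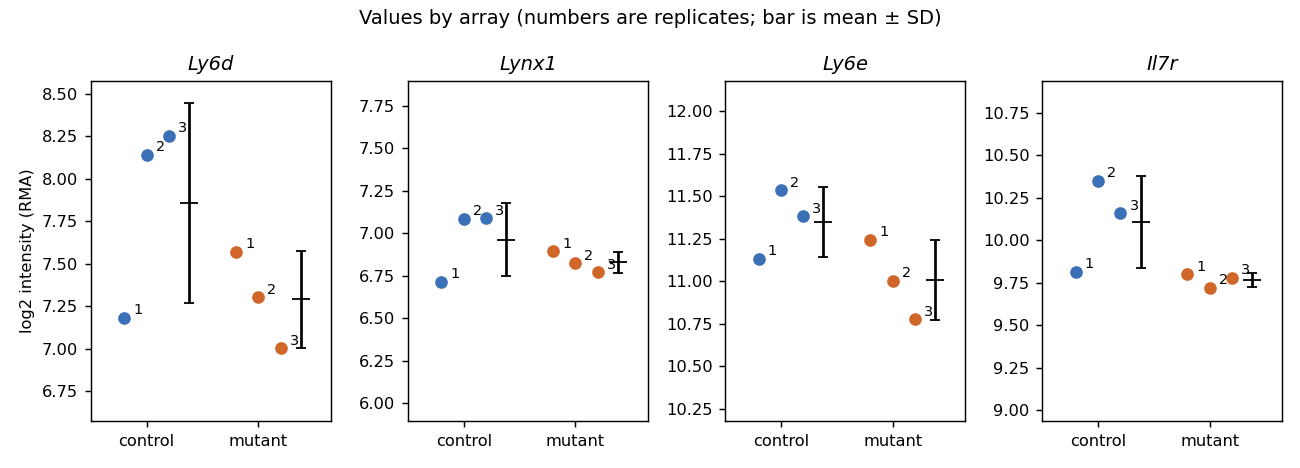
Log2 RMA intensity of Ly6d, of its genomic neighbour Lynx1, of Ly6e and of the interleukin 7 receptor gene Il7r on each of the 6 arrays. Numbers give the replicate, the bar gives the group mean with its SD, and each panel spans the same range of 2 log2 units; control replicates 2 and 3 lie above the other arrays for Ly6d, at 8.14 and 8.25.

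Array weights, which count each array by how close it lies to its group mean, gave a larger difference of −0.96 that passed (adjusted p = 0.0136 in limma). Under these weights 2960 genes passed in all, and mutant replicate 3, the array with the lowest Ly6d, had the largest weight, 5.20. The weights rest on 3 arrays per group.

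Y-linked transcripts ran in parallel with Ly6d, while the X-linked Xist did not (r = −0.53). On the 4 arrays with high Eif2s3y, a subset formed after seeing the data, Ly6d was 0.76 lower in the mutants on average. It was at 8.14 and 8.25 in controls and at 7.57 and 7.30 in mutants. On the pair with low Eif2s3y it was at 7.18 in the control and 7.00 in the mutant. The Y-linked gene Kdm5d was at 3.89, 6.18 and 6.21 in controls and 6.06, 5.05 and 3.57 in mutants, which is the same order of arrays as for Ly6d. With the Y-linked division as a block the difference of Ly6d was the same by construction, since each group holds 1 low and 2 high arrays, with an SE of 0.17 in place of 0.29 and an adjusted p of 0.637 in limma. The part of this division in the values of Ly6d was not tested.

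The spread of Ly6d among controls was wide for these arrays. Its SD over the 3 controls, 0.59, was matched or exceeded by 0.684% of the tested genes, whose median was 0.12. In the mutants its SD of 0.28 was matched or exceeded by 30.5% of them, with a median of 0.20. Control replicate 1 was at least 0.5 below both other controls for Ly6d and for 125 of 13307 other tested genes, or 0.939%. Among 30 tested B lineage target genes this held for 9, namely Cd79b, Fcrla, Bach2, Spib, Irf4, Cecr2, Ralgps2, Akap12 and Blk. The same array was at 4.88 for Eif2s3y, and had a myeloid list score 0.25 above the control mean, against −0.11 and −0.13 in the other controls. Mutant replicates 1 to 3 scored 0.43, −0.27 and −0.06, with Ly6d at 7.57, 7.30 and 7.00. The relation of this score to Ly6d was not tested. The score takes each tested member's difference from its control mean, on the log2 scale, and gives their median.

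The 12 named genes whose values followed Ly6d most closely over the 6 arrays had r of 0.95 to 0.99. Likeness was measured by Pearson's r of log2 values over the 6 arrays, among 3348 tested genes whose SD was at least 0.5 times that of Ly6d, with predicted and small RNA genes passed over. The arrays share their sort, their amplification and the properties given above, and Ly6d itself falls into a pair of high arrays and 4 lower ones. The values of r are therefore a description, the relation cannot be tested, and no p is given. The closest gene was Pip4p1, which encodes a phosphatase of membrane inositol lipids. Its values were 6.67, 7.31 and 7.40 on the control arrays and 7.00, 6.84 and 6.66 on the mutant arrays, each in replicate order (r = 0.99), and the 6 arrays stood in the same order as for Ly6d. The histidine and peptide transporter gene Slc15a4, which acts on endolysosomes, was at 6.32, 6.79 and 6.95 in controls and at 6.49, 6.46 and 6.30 in mutants (r = 0.98), again in the same order. Spib, an Ets family transcription factor gene of B cells and plasmacytoid dendritic cells, was at 7.23, 8.89 and 8.60 in controls and at 7.70, 7.68 and 7.11 in mutants (r = 0.97). It spanned a wider range than Ly6d.

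The others were Ifi209, an interferon-inducible gene (r = 0.97), the glutamine transporter gene Slc1a5 (0.97), the leukocyte actin regulator gene Coro1a (0.97), the ribosomal stalk gene Rplp0 (0.97) and Trp53i11 (0.97). Siglecg, an inhibitory lectin receptor gene of B cells, followed at r = 0.96, then Gramd4 (0.95), the iron-sensing ubiquitin ligase subunit gene Fbxl5 (0.95) and Irf4, a transcription factor gene of lymphocytes (0.95). All 12 had their highest value in control replicate 2 or 3 and 11 their lowest in mutant replicate 3, which follows from their choice by likeness to Ly6d. So does a lower mutant mean, by 0.26 to 0.74, and none passed (adjusted p = 0.594 to 0.62 in limma). The 2 arrays farthest from the median of Ly6d were control replicates 2 and 3. Without them 10 of the 12 had r of 0.8 or more over the remaining 4 arrays, and the lowest was 0.70 for Irf4. The 12 were chosen on values that include these 4 arrays, so this is no separate evidence of likeness.

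**Figure D2:**
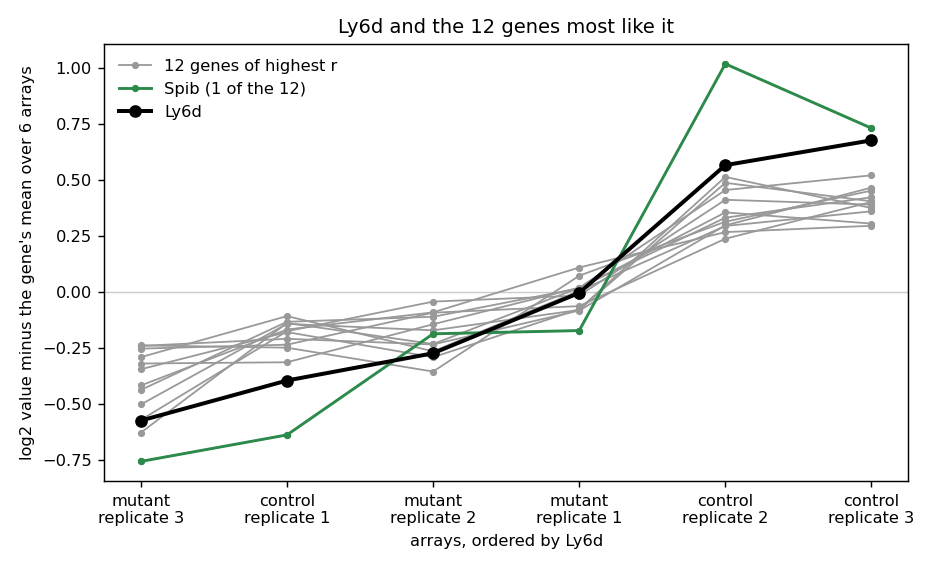
Log2 value minus each gene's own mean over the 6 arrays, for Ly6d (black), Spib (green) and the other genes of highest Pearson r with Ly6d (grey), with arrays ordered by Ly6d. The lines lie highest on control replicates 2 and 3, and Spib goes further up and down than Ly6d.

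The 8 genes that ran most opposite to Ly6d had r of −0.96 to −0.90 and a higher mutant mean without passing. Both follow from their choice by the lowest r with Ly6d on these same arrays. Of the other tested genes 1.95% had r of −0.8 or below. The drug and glutathione efflux gene Abcc1 was at 6.69, 6.08 and 6.16 in controls and at 6.48, 6.47 and 6.73 in mutants (r = −0.96). The RNA helicase gene Ddx18 was at 9.55, 9.14 and 9.12 in controls and at 9.51, 9.76 and 9.83 in mutants (r = −0.95). Both were low where Ly6d was high. The rest were Idi2 of isoprenoid synthesis (−0.94), DQ267102 (−0.93), Btnl10 (−0.93), the E-selectin gene Sele (−0.91), the hair follicle keratin gene Krt71 (−0.90) and the cornified envelope gene Sprr2b (−0.90). Apart from Ddx18 and Abcc1, these had no value above 6.71.

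Among the genes of its own family and genomic neighbourhood, Ly6d ran with Lynx1 and Ly6e and not with the rest. Of 19 other listed genes 16 were measured, 11 were bright enough to be tested, and Ly6c1, Ly6h, Ly6f, Psca and Gml were not. Lynx1, which encodes a GPI-anchored modulator of nicotinic receptors and lies next to Ly6d in the RefSeq gene order (GRCm38.p6), was at 6.72, 7.09 and 7.09 in controls and 6.89, 6.82 and 6.77 in mutants (r = 0.97). Its SD over the arrays, 0.16, was below the minimum for the 12 genes above. Ly6e, widely expressed on lymphocytes, was at 11.13, 11.54 and 11.38 in controls and 11.24, 11.00 and 10.78 in mutants (r = 0.91). These made 2 of 11 tested genes with r of 0.8 or more, or 18.2%, against 6.4% of the 13307 other tested genes. The remaining 9 ran from −0.79 for Ly6i to 0.40 for Slurp1. Ly6c2, a gene of monocytes and plasmacytoid dendritic cells, was at 10.12, 9.06 and 9.58 in controls and 10.27, 9.42 and 9.48 in mutants (r = −0.35), and Ly6g of neutrophils was at 5.85, 5.94 and 5.16 in controls and 6.47, 5.02 and 5.76 in mutants (r = −0.10). Several Ly6 genes are near-identical copies, whose probe sets can share signal. Of the pair Ly6c1 and Ly6c2, the probe set of Ly6c1 stayed at 3.55 to 3.73 over the 6 arrays while that of Ly6c2 ranged from 9.06 to 10.27.

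The likeness to Lynx1 did not extend along the chromosome. The next tested genes on that side were Slurp2 (r = −0.13), Lypd2 (−0.31), Slurp1 (0.40) and Them6 (0.48). On the other side the adjacent gene, Ly6g6g, was too dim to be tested (3.80 to 4.53), Ly6k had r = −0.59, and Gml, Cyp11b1 and Cyp11b2 were too dim as well. Ly6k, the gene of a protein of testis and epithelia, was at 5.86, 5.83 and 5.67 in controls and 5.93, 6.36 and 5.98 in mutants, without overlap, where 15.4% of the tested genes had groups that did not overlap. In the list the mutant mean was lower for 4 of 11 tested genes, with a median difference of 0.07 against −0.04 over all tested genes, and the median was −0.02 after cyclic loess. None passed in limma, and at an unadjusted p under 0.05 there were 0. Of the 12 tested Ly6/uPAR genes elsewhere in the genome 0 had r of 0.8 or more, and their r ran from −0.94 for Ly6g6e to 0.62 for Lypd4. Their mutant mean was lower for 1 of 12, against 57.5% of all tested genes (9168 of 13307 when arrays were centred on their medians and 6876 with repeated quantile normalization). In this list 4 of 12 were lower with centred medians, 4 with array weights, 2 when quantile normalization was repeated and 3 after cyclic loess.

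Many early B lineage target genes ran high and low on the same arrays as Ly6d. Of 30 tested members 14 had r of 0.8 or more, or 46.7%, against 6.4% of the other tested genes, and the median r was 0.80 against 0.17. For 26 of the 30 r was above 0, against 60.2% of the other tested genes. The highest were Spib (0.97), the adaptor gene Blnk (0.96), Irf4 (0.95), Cd79b (0.94), which encodes a signalling chain of the B cell receptor, and the heavy chain gene Ighm (0.94). Cd79b was at 10.14, 10.91 and 10.68 in controls and 10.29, 10.31 and 10.02 in mutants. Blnk was at 9.54, 10.08 and 9.93 in controls and 9.71, 9.59 and 9.52 in mutants. Igll1, a surrogate light chain gene, was at 10.78, 11.23 and 11.10 in controls and 10.89, 10.43 and 10.54 in mutants (r = 0.88). In each of them control replicates 2 and 3 were the highest arrays and control replicate 1 lay within the range of the mutants.

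For 25 of the 30 the highest value was in control replicate 2 or 3, against 33.1% of the other tested genes, and the lowest was in mutant replicate 2 for 14 and in mutant replicate 3 for 10. The 14 genes were completed by Cd79a (0.86), the kinase genes Syk (0.84), Blk (0.81) and Btk (0.81), the repressor gene Bach2 (0.83), the scaffold gene Akap12 (0.87), Cecr2 (0.85) and Ralgps2 (0.80). The lowest members were Lef1, a transcription factor gene of early lymphocytes (−0.46), and Erg, an Ets factor gene of progenitors (−0.16). The surrogate light chain gene Vpreb2 (−0.08) and the surface antigen gene Cd24a (0.04) did not follow Ly6d either. Vpreb1, Cr2 and Mme were too dim to be tested, and Cd72 and Rag1 are not analysed here.

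**Figure D3:**
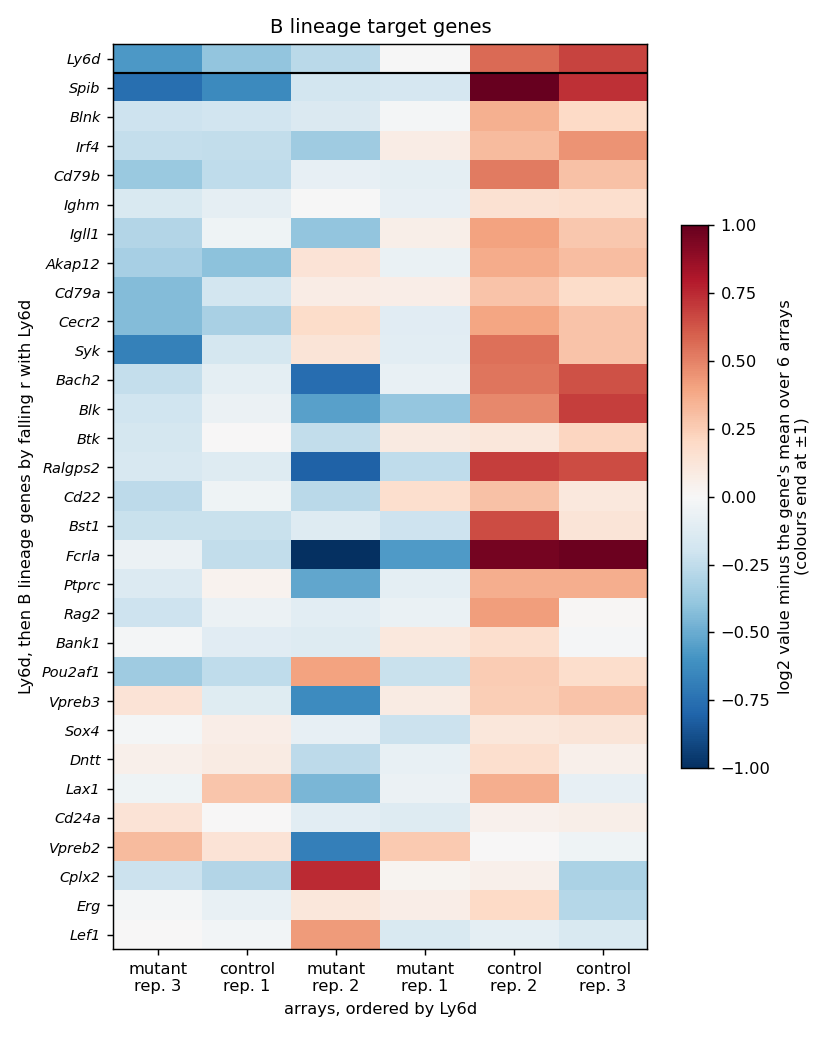
Log2 value minus the gene's mean over the 6 arrays for Ly6d (top) and 30 tested B lineage target genes, sorted by falling Pearson r with Ly6d, with arrays ordered by Ly6d. Red marks values above the mean and blue values below it; the upper rows are red in control replicates 2 and 3, and the pattern ends near the bottom, where Lef1 has r = −0.46.

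The count of genes with r of 0.8 or more depended on the normalization. After cyclic loess 5 of the 30 genes had r of 0.8 or more and with repeated quantile normalization 6, with medians of 0.70 and 0.72. Leaving out 1 array gave 11 to 18 genes. With the group means removed, so that only differences within groups count, 9 remained at 0.8 or more and the median was 0.67, against 0.12 for all tested genes. On the 4 arrays with high Y-linked expression, where Ly6d was higher in both controls than in both mutants, the median was 0.85. Without control replicates 2 and 3, it was 0.41, against 0.13 over the other tested genes, and 4 genes reached 0.8. The relation thus rests largely on control replicates 2 and 3. Without them the medians of the other lists ran from −0.15 for the Ly6 family to 0.90 for the sex-linked genes. The regulators of the Ly6D-positive step were at 0.44 and plasmacytoid dendritic markers at 0.43, so B lineage genes did not stand out at this setting.

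Between the groups, the mutant mean was the lower one for 27 of the 30 B lineage target genes. The median difference was −0.24, against −0.04 over all tested genes, of which 57.5% were lower. None passed in limma (adjusted p under 0.05), and 6 had an unadjusted p under 0.05: Blk, Ptprc, Ralgps2, Fcrla, Bach2 and Igll1, against 8.03% of all tested genes. Every mutant lay below every control for 6 members, Blk, Rag2, Dntt, Ralgps2, Sox4 and Ptprc, against 9.99% of all tested genes. The Fc receptor-like gene Fcrla differed by −1.12 ± 0.37 (SE, adjusted p = 0.594 in limma), at 7.06, 8.26 and 8.28 in controls and 6.73, 6.25 and 7.24 in mutants. The median was −0.06 after cyclic loess, with 22 of 30 lower, and −0.11 when quantile normalization was repeated. Leaving out control replicate 1 made it −0.37, and leaving out control replicate 2 made it −0.16.

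To show the kind of sequence that lies upstream of such genes, the 250 bases before the transcription start are printed for 4 examples of the pre-B cell receptor pathway among them, Cd79a, Igll1 and Blnk, which hold the motif marked below, and Btk, which does not. They were picked after the search, and Syk, with 2 windows that both hold the motif, is not printed. Sequences and coordinates are from RefSeq, build GRCm38.p6, read 5′ to 3′ on the gene's strand. Capitals mark the E-box CAGGTG, the core bound by E2A, searched on both strands, so that CACCTG is the same box on the other strand.
Cd79a (chr7:24897247-24897496, + strand): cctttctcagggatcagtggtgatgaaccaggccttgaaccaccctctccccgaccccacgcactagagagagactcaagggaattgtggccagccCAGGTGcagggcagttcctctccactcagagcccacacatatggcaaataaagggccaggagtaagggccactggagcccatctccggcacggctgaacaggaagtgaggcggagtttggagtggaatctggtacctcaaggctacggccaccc
Igll1 (chr16:16863986-16864235, − strand): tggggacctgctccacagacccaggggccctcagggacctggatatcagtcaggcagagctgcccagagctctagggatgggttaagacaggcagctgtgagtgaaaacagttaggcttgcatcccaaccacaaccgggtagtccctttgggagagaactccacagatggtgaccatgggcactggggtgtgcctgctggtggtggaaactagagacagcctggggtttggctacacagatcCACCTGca
Blnk (chr19:40994222-40994471, − strand): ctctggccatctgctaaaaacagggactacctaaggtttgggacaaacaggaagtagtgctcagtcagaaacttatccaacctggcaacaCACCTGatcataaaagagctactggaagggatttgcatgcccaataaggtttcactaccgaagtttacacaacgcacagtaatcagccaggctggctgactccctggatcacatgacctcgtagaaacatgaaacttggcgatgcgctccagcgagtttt
Btk (chrX:134583141-134583390, − strand): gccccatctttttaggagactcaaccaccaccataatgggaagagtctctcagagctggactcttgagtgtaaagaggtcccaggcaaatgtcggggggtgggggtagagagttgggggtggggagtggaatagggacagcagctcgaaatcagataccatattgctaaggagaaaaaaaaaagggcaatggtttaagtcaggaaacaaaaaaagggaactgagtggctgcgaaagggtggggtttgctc

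The first 3 windows hold 1 such box each and that of Btk holds none. Of the 14 genes with r of 0.8 or more 9 had a window in the table, and 5 of these held the box (55.6%), as did 5 of 14 with a window among the other tested B lineage genes (35.7%) and 19.4% of 27025 genes with a window. A palindromic core bound by EBF1, TCCC and GGGA separated by any 2 bases, was also searched on both strands. It was in 0 of the 9 windows, in 1 of the 14 (Cd22) and in 0.914% of all genes. These matches describe letters in a window and not binding.

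The regulators known for the Ly6D-positive step did not run with Ly6d as 1 group. Of 18 tested genes 6 had r of 0.8 or more, or 33.3% against 6.4% of the other tested genes, and the median was 0.60. On the 4 arrays with high Y-linked expression the median was 0.18, against 0.23 over all tested genes. The interleukin 7 receptor gene Il7r was at 9.81, 10.35 and 10.16 in controls and 9.80, 9.72 and 9.78 in mutants (r = 0.88), without overlap. Without control replicates 2 and 3 its r was 0.03. Foxo1 was at 8.28, 8.60 and 8.68 in controls and 8.66, 8.42 and 8.14 in mutants (r = 0.86), and its r was 1.00 over the 4 arrays left without those 2. Cbfb, which encodes the partner of the RUNX factors, was at 8.35, 8.92 and 8.98 in controls and 8.76, 8.67 and 8.26 in mutants (r = 0.93), in the same order of arrays as Ly6d. Tcf12, an E protein gene (0.89), Stat5b of cytokine signalling (0.84) and Ikzf1, the Ikaros gene (0.82), made up the 6.

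The factors that start the B cell programme followed Ly6d less closely. Ebf1 was at 9.76, 9.97 and 9.89 in controls and 9.95, 10.02 and 9.78 in mutants, with r = 0.47 over all arrays, 0.77 with the group means removed and −0.71 on the 4 arrays with high Y-linked expression. It was lowest on control replicate 1 and mutant replicate 3, the arrays with the lowest Ly6d, and highest on mutant replicate 2. Tcf3, the gene of E2A, was at 9.26, 9.81 and 9.72 in controls and 9.30, 10.02 and 8.58 in mutants (r = 0.60). Pax5, which commits cells to the B lineage, was at 8.22, 8.72 and 8.69 in controls and 8.11, 8.80 and 7.92 in mutants (r = 0.65). Both were highest on mutant replicate 2, which stood apart, and without that array r was 0.91 for Tcf3 and 0.93 for Pax5. On the 4 arrays with high Y-linked expression r was −0.05 for Tcf3 and 0.23 for Pax5.

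The other regulators had Myb at 0.71, the inhibitor genes Id3 at 0.59, Id2 at −0.33 and Id1 at −0.63, Gfi1 at 0.01, Bcl11a at −0.25 and Runx1 at −0.32. Spi1, the gene of the myeloid and lymphoid factor PU.1, was at −0.65 and Stat5a at −0.75. The mutant mean was lower for 12 of 18, near the 57.5% of all tested genes, with a median difference of −0.12 that became 0.01 after cyclic loess and −0.01 without mutant replicate 3. None passed in limma, and Ikzf1 (−0.45 ± 0.13, SE, adjusted p = 0.594 in limma) was the 1 gene with an unadjusted p under 0.05, against 8.03% of all tested genes.

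The remaining sort genes showed no common pattern with Ly6d. Kit was at 7.41, 7.10 and 6.96 in controls and 7.30, 7.15 and 6.96 in mutants (r = −0.32). Thy1, the gene of the other excluded marker, was at 6.90, 6.75 and 7.31 in controls and 6.94, 6.83 and 6.54 in mutants (r = 0.63), and without control replicate 3 its r was 0.23. Flt3, a cytokine receptor gene of these progenitors that is not among the sort markers, had r = −0.23. Ly6a, the gene of Sca, is not analysed here. Of 8 tested genes of lineage depletion 2 had r of 0.8 or more, Ighm at 0.94 and the T cell receptor complex gene Cd3e at 0.83, and the B220 gene Ptprc was at 0.76. Fcer1a, a gene of mast cells and basophils, was at 7.04, 4.38 and 5.27 in controls and 6.41, 4.64 and 6.24 in mutants (r = −0.58).

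Genes that build and attach the GPI anchor, which Ly6D needs to reach the surface, did not run with Ly6d over the 6 arrays. In this list, which also holds other GPI-anchored proteins, 1 of 29 tested genes had r of 0.8 or more (3.45% against 6.4%), and the median was 0.11. On the 4 arrays with high Y-linked expression the median was 0.50, against 0.23 over all tested genes. The 1 gene was Pgap1, the gene of an enzyme that remodels the anchor (0.91), at 4.69 to 5.09. Pigw, of anchor synthesis, and Pigh, a subunit of the enzyme of its first step, were each at 0.73, while Dpm3, of mannose donor synthesis, was at −0.80 and Pigc at −0.73.

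**Figure D4:**
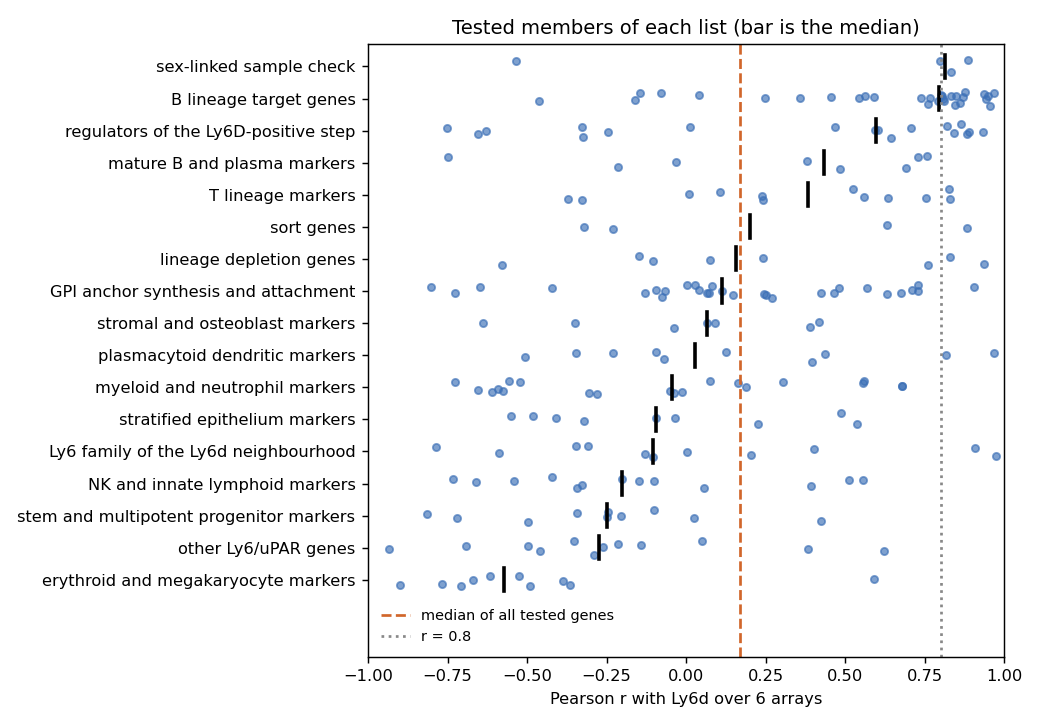
Pearson r with Ly6d over the 6 arrays for each tested member of 17 gene lists, with Ly6d left out; points are genes, black bars list medians, the dashed line the median of all tested genes (0.17) and the dotted line r = 0.8. B lineage target genes gather at the right (median 0.80), and erythroid and megakaryocyte markers at the left (median −0.57).

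Markers of other cell types were examined in the same way because Ly6d is also known from plasmacytoid dendritic cell precursors and from stratified epithelium. Of 10 tested plasmacytoid dendritic markers 2 had r of 0.8 or more, Spib and the E protein gene Tcf4 (0.82), and the median was 0.03. Cox6a2 was at −0.51, and Ccr9, Pacsin1, Klk1, Tlr7 and Cd209d were too dim to be tested. The summed level of the list, as log2 of the summed intensities of its 15 measured genes, was 11.66 to 11.90 in controls and 11.24 to 11.94 in mutants. In such a sum, here and for the lists below, the brightest members weigh most. In this list they included Irf8 at 9.05 to 10.43 and Ly6c2 at 9.06 to 10.27. Of 9 tested markers of stratified epithelium 0 had r of 0.8 or more (median −0.10), and Krt15, Krt17, Dsg3, Dsc3, Dsp, Pkp1, Epcam and Foxn1 were too dim. The summed level of that list was 9.60 to 9.62 in controls and 9.65 to 9.77 in mutants.

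Markers of mature B and plasma cells included 0 of 8 tested genes with r of 0.8 or more, with a median of 0.43. The class II antigen presentation genes H2-Ab1 (0.76), H2-Aa (0.73) and H2-Eb1 (0.69) came closest, and Ms4a1, Fcer2a, Prdm1, Jchain, Cr2 and Ccr6 were too dim. The summed level was 10.24 to 10.57 in controls and 9.84 to 10.24 in mutants. H2-Aa was at 6.37, 6.92 and 6.86 in controls and 6.05, 5.09 and 5.85 in mutants, without overlap, and differed by −1.05 ± 0.26 (SE, adjusted p = 0.594 in limma). In the T lineage list 2 of 12 tested genes reached 0.8 (16.7% against 6.4%), Cd3e and the adhesion gene Cd2 (both 0.83). The median was 0.38 against 0.17 over all tested genes, and Bcl11b was lowest at −0.37. For 10 of the 12 r was above 0, against 60.2% of the other tested genes. The summed level of the list was 9.73 to 10.09 in controls and 9.53 to 9.92 in mutants. Cd3e was at 5.32, 5.99 and 6.78 in controls and 5.85, 5.62 and 5.70 in mutants, and Cd2 at 5.22, 5.56 and 6.16 in controls and 5.27, 5.50 and 5.14 in mutants, so control replicate 3 was highest for both.

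For markers of the remaining lineages the median r with Ly6d lay near 0 or below it. Of 13 tested natural killer and innate lymphoid markers 0 had r of 0.8 or more (median −0.20), with Il2rb at 0.56 and Rora at −0.73, and the summed level was 9.74 to 10.44 in controls and 9.77 to 10.24 in mutants. Of 20 tested myeloid and neutrophil markers 0 reached 0.8 (median −0.04). For 8 of the 20 r was above 0, against 60.2% of the other tested genes, and the highest were Lyz2 and Lyz1 (both 0.68). The lowest was the neutrophil elastase gene Elane (r = −0.73). It was at 10.34, 8.05 and 8.94 in controls and 10.56, 9.49 and 9.89 in mutants. The summed myeloid level was 13.71 to 14.34 in controls and 13.51 to 14.49 in mutants. Of 10 tested erythroid and megakaryocyte markers 9 had r below 0 (median −0.57), while 60.2% of the other tested genes had r above 0. The lowest was −0.90 for the platelet integrin gene Itga2b, and the transferrin receptor gene Tfrc at 0.59 was the exception. Without control replicates 2 and 3 the median was 0.09, against 0.13 over all tested genes. The summed level of this list was 10.21 to 10.71 in controls and 10.07 to 10.74 in mutants. Stem and multipotent progenitor markers had a median of −0.25 over 10 tested genes, with Cd48 at 0.42 and Procr at −0.81, and a summed level of 10.04 to 10.22 in controls and 9.80 to 10.25 in mutants. Stromal and osteoblast markers had a median of 0.07 over 7 tested genes and a summed level of 9.29 to 9.40 in controls and 9.39 to 9.45 in mutants. The part of any of these cell types in the values of Ly6d was not tested.

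The sex-linked genes had a median r of 0.81. Of the 4 tested, Kdm5d (0.89) and Uty (0.83) had r of 0.8 or more, Eif2s3y just missed 0.8, and Xist was at −0.53. Xist was at 11.04 in control replicate 1 and 10.72 in mutant replicate 3, and at 5.57 to 8.07 on the other arrays. Within the 4 arrays with high Eif2s3y the median r of the B lineage target genes with Ly6d was 0.85 against 0.23 over all tested genes. Ly6d was higher in both controls than in both mutants there, so this r cannot be separated from the group difference. The medians of the other lists ran from −0.50 for the other Ly6/uPAR genes to 0.81 for the sex-linked genes. Mature B and plasma markers were at 0.70 and T lineage markers at 0.60.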

How the data were processed

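Sorted progenitors of 3 control and 3 mutant samples were lysed in Trizol, and their cDNA was made with NuGEN Ovation amplification and biotinylated, per the labels' protocols. The values the authors deposited are log2 intensities per probe set. The submitters' processing notes name RMA; which version, annotation or build was used is not given in the sources used here. RMA evens out the arrays' distributions, so a value is relative to the rest of its array.

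Of 41345 probe sets 23521 carried 1 gene symbol in the platform annotation, 1814 several and 16010 none listed, and only those with 1 were named. For each of 22180 genes the brightest probe set by mean was kept, and the lowest 40% by mean (below 4.84) were not tested, leaving 13308. Groups came from the sample titles. The groups were compared by the moderated test of limma 3.58.1 (R 4.3.3), 2-sided, with Benjamini-Hochberg adjustment over all tested genes, and likeness by Pearson's r with pandas 2.3.3. Both were tested on simulated data. Figures used matplotlib 3.10.9.

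Ly6d, the gene lists and the tests were chosen with earlier results of these data known. Named genes were the 12 most and 8 least like Ly6d, the family and sort genes, the tested regulators, 5 measured neighbours on each side, and from other lists the 3 highest and 2 lowest by r. Other genes were named after their values were seen. The alternatives were no filter or a 60% filter on dim genes, the mean of all probe sets or each alone, a trended and robust prior, array weights, median centring, cyclic loess, repeated quantile normalization, an unmoderated test, the replicate number or Y-linked expression as a block, and leaving out each array. For likeness they were Spearman's rho, group means removed and no SD minimum. The 4 arrays with high Y-linked expression alone, and leaving out the 2 arrays farthest from the Ly6d median, were added after seeing the data.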

Additional observations from a re-analysis of the deposited data

How the results depend on the processing

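Of 19 alternatives for the difference of Ly6d, 8 cannot move it (the filters, the choice of probe set, the prior, the unmoderated test and the balanced blocks). The other 11 gave negative values. In 18 of the 19 it did not pass, with values from −0.90 to −0.37 (adjusted p = 0.248 to 0.886 in limma). With array weights it was −0.96 and passed, 2960 genes passed in all, and the cause was not tested. Otherwise 0 genes passed, except on leaving out 1 array, which gave 0 to 4 genes, with 4 without mutant replicate 1 and 1 without mutant replicate 2. The 12 genes most like Ly6d, chosen on the same arrays, passed only with array weights.

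Likeness to Ly6d varied more. The count of genes with r of 0.8 or more was 851; it was 490 after cyclic loess, 493 with repeated quantile normalization, 2399 on the 4 arrays with high Y-linked expression, and 798 to 1817 on leaving out 1 array. It was 1644 without control replicate 1 and 1817 without mutant replicate 2. Among 30 B lineage target genes the count of 14 became 9 with group means removed, 5 after cyclic loess, 6 with repeated quantile normalization, 4 without the 2 arrays farthest from the Ly6d median, and 11 to 18 on leaving out 1 array. Their median r of 0.80 became 0.69 by Spearman's rho, 0.67 with group means removed, 0.70 after cyclic loess, 0.72 with repeated quantile normalization, 0.85 on the 4 arrays, 0.41 without the 2 farthest, and 0.73 to 0.86 on leaving out 1 array. The causes were not tested. Which genes ranked as the 12 most alike was unstable: 1 to 11 of them stayed among the 12 under other settings. At least 10 had r of 0.8 or more in each setting. That is no separate evidence, since the 12 were chosen for the highest r on these same arrays.

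Replicate numbers did not pair the samples: same-numbered deviations from the group means correlated at 0.13, 0.20 and −0.13. With the replicate block the Ly6d difference was −0.57 (adjusted p = 0.597 in limma), and 0 genes passed. With 3 arrays per group and no detection calls, dim genes and small differences cannot be resolved.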
